A study of Mus musculus with 6 samples.

Results

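The MYC, MAX and MXD network was followed here through its 9 genes Myc, Mycn, Max, Mxd1, Mxd3, Mxd4, Mxi1, Mnt and Mlx, taken as all probe sets that the platform annotation assigns to one of these genes alone. They were 9 of 18193 annotated genes and 21 of 45101 probe sets. A gene was represented by its brightest probe set, and 7 of the 9 genes lay at or above the 40th percentile of gene intensity (39.8 intensity units) and were tested among 10916 genes. Mycn and Mxd1 lay under that level.

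The cells were NIH3T3, an immortalised mouse embryonic fibroblast line, described as having either wild-type or mutant LPAR1, the first lysophosphatidic acid receptor. Total RNA was taken at 0, 60 and 120 minutes and hybridised to 6 Affymetrix mouse arrays, 1 for each genotype and time. The labels did not say which mutation LPAR1 carried, how it was introduced or what the cells received at 0 minutes. Nor did they say whether separate cultures or clones lay behind the arrays, so the spread between arrays may be technical. With 1 array per genotype and time no replicate spread was measured. Each p-value rests on what genotype and time left unexplained, moderated with the spread of the other genes. That remainder includes any difference in time course between the genotypes.

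MYC and MAX are basic helix-loop-helix leucine zipper proteins that bind DNA as a heterodimer at the E-box CACGTG and raise transcription of genes for ribosome building, nucleotide synthesis and growth. MXD1, MXD3, MXD4, MXI1 (also called MXD2) and MNT pair with the same MAX and recruit SIN3 and histone deacetylases, which lowers transcription at the same boxes, while MLX pairs with MNT, with some MXD proteins and with the glucose sensors MondoA and ChREBP. In fibroblasts, Myc is a classical early response gene with a short-lived mRNA, and the MXD genes are best known from cells that leave the cycle.

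The promoter windows of these genes are shown first because the network's own binding letters lie in several of them. The RefSeq promoter table (GRCm38.p6, from 250 bases before to 50 bases after a gene's start) held 10 windows for 8 of the 9 genes, all but Myc. Both strands were searched for CACGTG (the E-box), TGTTTAC (letters bound by FoxO factors), GGCGGGAA (letters bound by E2F factors) and TATAAA (the TATA box), and none of the matches printed overlapped another. CACGTG occurred in 4 of the 10 windows, those of Max, Mlx, Mnt and Mxd4 among the 8 genes, and in 7.15% of all 32851 windows. Each is printed as 30 bases on the gene's strand with the matched letters in capitals.
Max, E-box, chr12:76962234-76962263, minus strand: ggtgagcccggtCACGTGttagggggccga
Mlx, E-box, chr11:101087238-101087267, plus strand: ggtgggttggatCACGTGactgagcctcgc
Mnt, E-box, chr11:74830789-74830818, plus strand: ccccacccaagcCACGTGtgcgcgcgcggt
Mxd4, E-box, chr5:34187912-34187941, minus strand: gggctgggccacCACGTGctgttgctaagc
The box began 3 bases before the start in Max, 40 before it in Mlx, 123 in Mnt and 219 in Mxd4. TGTTTAC, read on the other strand as GTAAACA, occurred in 1 of the 3 Mxi1 windows and in 3.65% of all windows, and GGCGGGAA occurred in the Mxd3 window and in 2.19% of all windows.
Mxi1, FoxO letters, chr19:53329453-53329482, plus strand: cgcgcggagaaGTAAACAaaccgcgcgcgg
Mxd3, E2F letters, chr13:55329850-55329879, minus strand: agttcagcctgGGCGGGAAgaggcgggctg
The Mxi1 letters began 231 bases before the start and the Mxd3 letters 137 bases before it. TATAAA was in none of the 10 windows and in 13.6% of all windows. A match is a description of these letters and not a measured binding site.

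As a check of the cells and arrays, all 10 fibroblast markers lay above the filter level, with summed intensities of 62394 to 63804 in wild-type and 60929 to 61739 in mutant arrays. Of the other markers, 3 of 5 epithelial genes (Epcam, Cdh1 and Krt14), 1 of 5 immune genes (Adgre1), 1 of 4 endothelial genes (Cdh5), 0 of 3 muscle genes and 0 of 2 measured adipocyte genes did. Lpar1 itself read 1335, 1290 and 1289 in the wild-type and 1496, 1514 and 1438 in the mutant arrays at 0, 60 and 120 minutes, a log2 difference of 0.18 ± 0.045 (SE, adjusted p = 0.0208, limma), with the mutant arrays higher at 3 of 3 times. Which allele the mRNA came from was not read from these intensities. Median probe set intensity per array ran from 34.0 to 37.2.

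**Figure D1:**
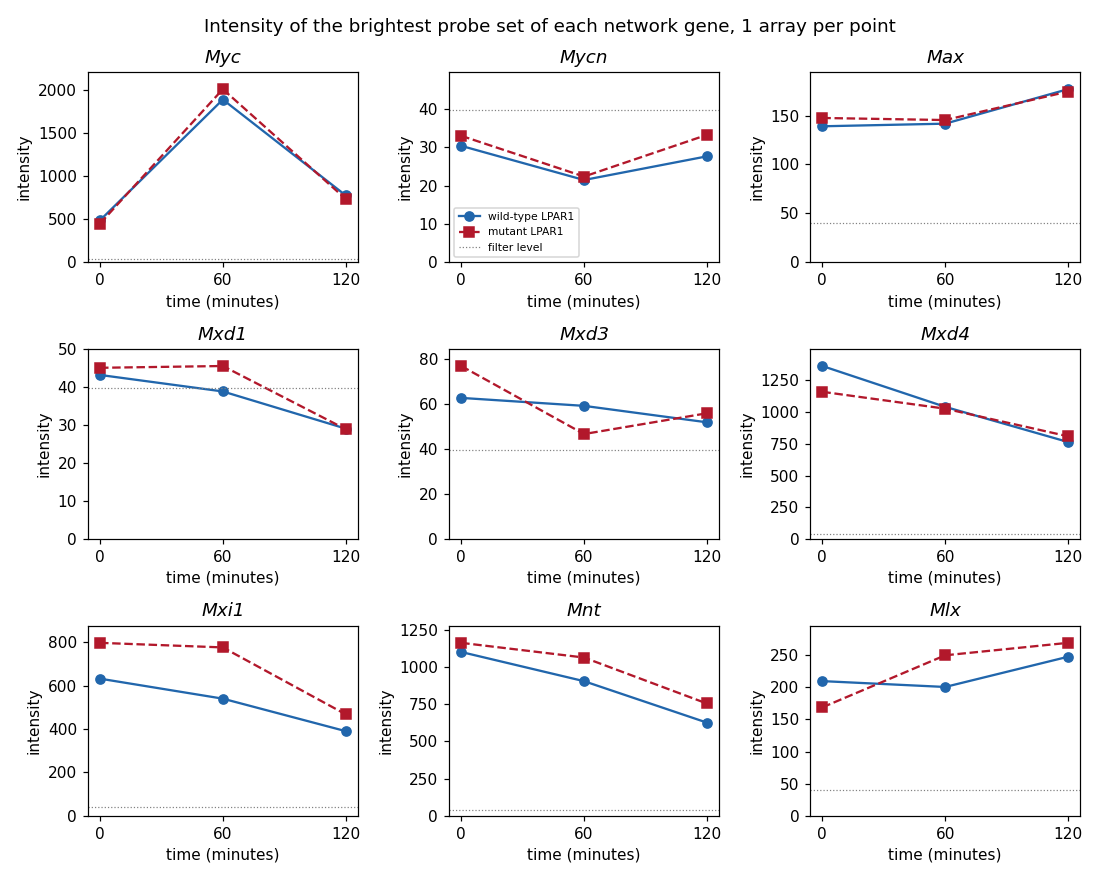
Intensity (linear scale, each panel from 0) of the brightest probe set of each of the 9 genes against time in minutes, 1 array per point, with the wild-type and mutant arrays as separate lines and the filter level of 39.8 dotted. Myc peaked at 60 minutes under both genotypes (1888 and 2008), while Mnt, Mxd4 and Mxi1 were lowest at 120 minutes.

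Over the time course, Myc rose 4.06-fold by 60 minutes and had fallen back by 120 minutes, while the MAX partners Mnt, Mxd4 and Mxi1 fell 1.59- to 1.64-fold over 120 minutes and Max and Mlx rose less. Differences between times were fitted over both genotypes, so each rests on 2 arrays against 2, and those from 0 to 60 and from 0 to 120 minutes share the 0 minute arrays, as those from 0 to 60 and from 60 to 120 minutes share the 60 minute arrays. A gene was called at an adjusted p under 0.05 (limma, Benjamini-Hochberg over all 10916 genes). From 0 to 60 minutes 2 of the 7 tested genes were called, 1 higher and 1 lower, where 18.1% of all genes were called (7.37% higher and 10.7% lower). From 0 to 120 minutes 6 of 7 were called, 3 higher and 3 lower, against 47.1% of all genes (16.2% higher and 30.8% lower), and from 60 to 120 minutes 5 of 7 were called, 1 higher and 4 lower, against 25.2% (10.2% higher and 15.0% lower). With each array centred on its median the split over all genes was 12.1% higher and 4.64% lower from 0 to 60 minutes and 25.5% higher and 16.2% lower from 0 to 120 minutes, where the members then stood at 1 called higher and 0 lower, and at 3 higher and 3 lower.

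Myc, the activating partner, read 487, 1888 and 776 at 0, 60 and 120 minutes in the wild-type arrays and 449, 2008 and 735 in the mutant arrays. Both 60 minute arrays stood above the other 4, both 0 minute arrays were lowest, and the arrays of different times did not overlap. By time this was 468 ± 26.5, 1948 ± 85.2 and 756 ± 28.9 (SD, n = 2). The rise to 60 minutes was 2.02 ± 0.068 on the log2 scale (SE, adjusted p = 2.51e-08), the 49th highest of the 10916 genes, and the fall from 60 to 120 minutes was −1.35 ± 0.068 (adjusted p = 1.15e-06), the 54th largest fall. At 120 minutes Myc was still 1.60-fold above 0 minutes (log2 0.67 ± 0.068, adjusted p = 3.01e-05), with 20.7% of the wild-type gain and 18.3% of the mutant gain left. All 3 Myc calls held in each of 16 alternatives, among which the rise to 60 minutes ranged from 1.92 to 2.13.

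Mycn, the neural and embryonic paralogue of Myc, had 3 probe sets, all below the filter level. Its brightest read 30.4, 21.5 and 27.6 in the wild-type and 33.0, 22.4 and 33.2 in the mutant arrays. All 6 values lay under the filter level, and both 60 minute arrays were the lowest. In a fit without the filter the difference from 0 to 60 minutes was −0.33 ± 0.12 (log2 ± SE, adjusted p = 0.137), which did not pass, and the other 2 Mycn sets differed by 0.12 and −0.17.

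Max, the obligate partner of the network, read 139, 142 and 177 in the wild-type and 147, 145 and 174 in the mutant arrays. The 120 minute arrays were the highest under both genotypes, and the 0 and 60 minute arrays overlapped. Max rose by 0.27 ± 0.085 from 0 to 120 minutes (log2 ± SE, adjusted p = 0.0262) and by 0.27 ± 0.085 from 60 to 120 minutes (adjusted p = 0.0464), with 0.00 ± 0.085 from 0 to 60 minutes (95% interval −0.19 to 0.19, adjusted p = 0.986). The first call was lost in 5 of 15 alternatives, among them leaving out any 1 of the 0 or 120 minute arrays (adjusted p from 0.0516 to 0.199), and the second in 9 of 15, among them leaving out any 1 of the 6 arrays (adjusted p from 0.0655 to 0.197).

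Mlx, the MAX-like partner of MNT and MondoA, read 209, 200 and 247 in the wild-type and 169, 250 and 269 in the mutant arrays. The mutant 0 minute array was the lowest of the 6, and the wild-type 60 minute array lay below the wild-type 0 minute array, so the times overlapped. Mlx rose by 0.42 ± 0.12 from 0 to 120 minutes (log2 ± SE, adjusted p = 0.0169), and its difference from 0 to 60 minutes was 0.23 ± 0.12 (adjusted p = 0.221), or 0.48 (adjusted p = 0.0148) without the wild-type 0 minute array. The 0 to 120 minute difference was 0.18 (adjusted p = 0.297) without the mutant 0 minute array and 0.37 (adjusted p = 0.0608) without the mutant 120 minute array. The second Mlx probe set read 172, 231 and 252 in the wild-type and 178, 237 and 243 in the mutant arrays, lowest at 0 minutes under both genotypes. In a fit over probe sets it rose by 0.39 from 0 to 60 minutes (adjusted p = 0.0126) and by 0.47 from 0 to 120 minutes (adjusted p = 0.00195).

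Mnt, the most widely expressed repressor that pairs with MAX, read 1100, 904 and 626 in the wild-type and 1161, 1063 and 754 in the mutant arrays. The values were lower at each later time under both genotypes, and both 120 minute arrays were below the other 4. The fall from 0 to 120 minutes was −0.70 ± 0.066 (log2 ± SE, adjusted p = 1.93e-05), most of it after 60 minutes (−0.50 ± 0.066, adjusted p = 0.000392). Up to 60 minutes the difference was −0.20 ± 0.066 (adjusted p = 0.0613), which did not pass. With 1 array left out that difference ran from −0.29 to −0.12, and it stayed at −0.20 without either 120 minute array. The second Mnt probe set lay below the filter level and differed by −0.27 from 0 to 120 minutes.

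Mxd4, a repressor of the MXD family, read 1363, 1041 and 764 in the wild-type and 1160, 1027 and 809 in the mutant arrays. The times did not overlap, and the wild-type 0 minute array was highest. Mxd4 fell by 0.28 ± 0.076 from 0 to 60 minutes (log2 ± SE, adjusted p = 0.0317), by 0.39 ± 0.076 from 60 to 120 minutes (adjusted p = 0.00421) and by 0.67 ± 0.076 from 0 to 120 minutes (adjusted p = 7.43e-05). The first of these was lost in 7 of 16 alternatives, among them centring each array on its median (−0.17, adjusted p = 0.198) and leaving out the wild-type 0 minute array (−0.15, adjusted p = 0.378), the wild-type 60 minute array (−0.25, adjusted p = 0.126) or the mutant 60 minute array (−0.31, adjusted p = 0.0752). All 4 Mxd4 probe sets lay above the filter level and were lower at the later time under both genotypes in each of the 3 time differences. Over 0 to 120 minutes the other 3 sets fell by 0.34 to 0.69, with adjusted p from 0.000583 to 0.0259.

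Mxi1, another MXD family repressor, read 632, 540 and 390 in the wild-type and 797, 776 and 468 in the mutant arrays. Within each genotype 120 minutes was lowest, and the 0 and 60 minute arrays overlapped between genotypes. Its fall from 0 to 120 minutes was −0.71 ± 0.076 (log2 ± SE, adjusted p = 4.58e-05), of which −0.58 ± 0.076 came after 60 minutes (adjusted p = 0.000377), with −0.13 ± 0.076 before it (adjusted p = 0.269). The second Mxi1 set was below the filter level and differed by −0.57 from 0 to 120 minutes.

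Mxd3, the family member known for its expression in cycling cells, read 62.8, 59.3 and 52.0 in the wild-type and 77.0, 46.7 and 56.0 in the mutant arrays. The mutant 0 minute array was highest, the mutant 60 minute array lowest, and the 2 time orders differed between genotypes. Mxd3 passed in none of the 3 time differences, with −0.32 ± 0.14 (adjusted p = 0.145), −0.29 ± 0.14 (adjusted p = 0.112) and 0.03 ± 0.14 (adjusted p = 0.929) for 0 to 60, 0 to 120 and 60 to 120 minutes. With 1 array left out the first of these ranged from −0.53 without the wild-type 60 minute array to −0.11 without the mutant 60 minute array. The second Mxd3 set, also above the filter level, differed by −0.04 from 0 to 60 minutes and by −0.16 from 0 to 120 minutes. The third, below that level, differed by −0.24 and −0.19. Mxd1, the founding member of the MXD group, lay just under the filter level, with a mean of 38.5 against 39.8. It read 43.2, 38.9 and 29.1 in the wild-type and 45.1, 45.6 and 28.9 in the mutant arrays, so both 120 minute arrays were the lowest, at about the same value. In the fit without the filter Mxd1 fell by 0.42 ± 0.12 from 0 to 120 minutes (log2 ± SE, adjusted p = 0.0266). Its other 2 probe sets, also dim, differed by −0.80 and 0.10.

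**Figure D2:**
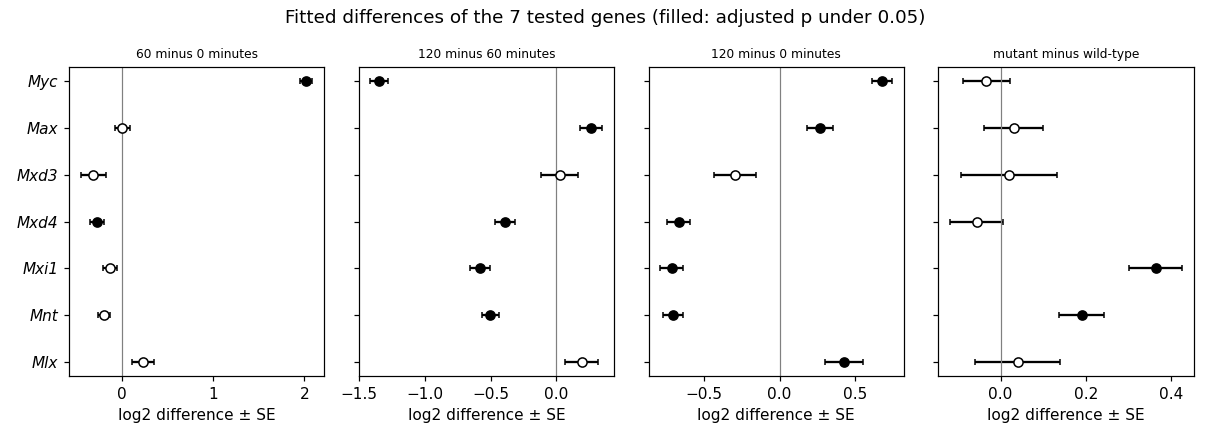
Fitted log2 differences ± SE of the 7 tested genes for mutant against wild-type and for the 3 pairs of times, with filled points where the adjusted p was under 0.05. The 120 minus 0 panel holds 3 genes to the right of 0 (Myc, Mlx and Max) and 3 called genes to the left (Mnt, Mxd4 and Mxi1).

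Mnt, Mxd4 and Mxi1 kept their calls from 0 to 120 minutes in each of 16 alternatives. Their calls from 60 to 120 minutes were lost only with genotype left out of the fit (adjusted p = 0.0524, 0.0580 and 0.135). Centring the arrays shifted the median of all genes from −0.09 to 0.05 for 0 to 120 minutes and from −0.07 to 0.03 for 0 to 60 minutes. After centring, Mnt, Mxd4 and Mxi1 stood at −0.56, −0.52 and −0.57 for 0 to 120 minutes, and at −0.10, −0.17 and −0.02 for 0 to 60 minutes, where none of the 3 was called. The median over the 7 members was −0.13, −0.29 and −0.39 for 0 to 60, 0 to 120 and 60 to 120 minutes, against −0.07, −0.09 and −0.02 over all genes. Over the same times the Actb 5′ to 3′ probe ratio, a sign of RNA integrity, was 0.579 at 0 and 0.699 at 120 minutes in the wild-type and 0.505 and 0.661 in the mutant arrays, while the Gapdh ratio lay between 0.954 and 1.03. The summed intensity of the 5 epithelial markers averaged 1626, 1474 and 1368 at 0, 60 and 120 minutes. The part of either in these results was not tested.

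**Figure D3:**
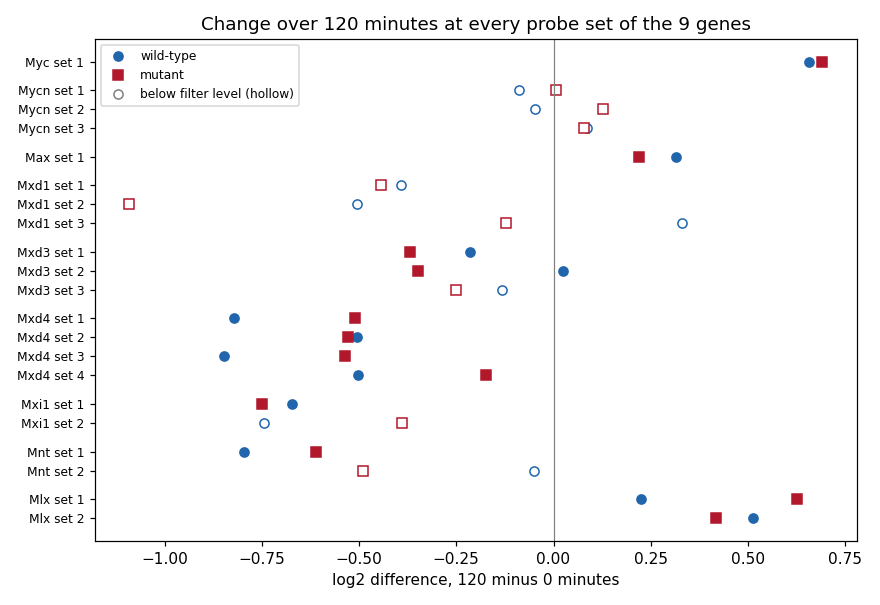
Log2 difference from 0 to 120 minutes at each of the 21 probe sets of the 9 genes, with wild-type and mutant shown separately and sets below the filter level marked. All 4 Mxd4 sets and both Mnt and Mxi1 sets lie left of 0, and both Mlx sets lie right of it.

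Between genotypes, Mxi1 was higher in the mutant cells, Mnt was higher by a smaller margin, and Myc did not pass. Of the 7 tested genes 2 were called, both higher, where 19.5% of all genes were called (10.5% higher). This comparison rests on 3 arrays a genotype, with time as the block that pairs them, and with time left out of the fit neither gene passed. The summed intensity of the 4 endothelial markers was at most 65.6 in the wild-type arrays and up to 111 in the mutant arrays, with no overlap and with Cdh5 as the single marker above the filter level, and its part in these differences was not tested.

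The Mxi1 intensities given above, 632, 540 and 390 against 797, 776 and 468, were higher in the mutant array at 3 of 3 times, by 0.33, 0.51 and 0.25 on the log2 scale. The fitted difference was 0.36 ± 0.062 (SE, 95% interval 0.22 to 0.50, adjusted p = 0.00357), a 1.29-fold excess. The second, dim Mxi1 set gave 0.07, and with all sets of a gene averaged the difference was 0.21 (adjusted p = 0.0726). Mnt was higher in the mutant at 3 of 3 times, by 0.08, 0.23 and 0.26, with a fitted difference of 0.19 ± 0.054 (adjusted p = 0.0352). The second, dim Mnt set gave 0.34, −0.01 and −0.09 at these times. The Mnt call was lost in 9 of 16 alternatives, among them averaging all sets of a gene (0.13, adjusted p = 0.142). Those leaving out the wild-type or the mutant array of the same time gave the same genotype difference, so they are not separate checks. It was lost without either 60 minute array (adjusted p = 0.131 and 0.132) and without either 120 minute array (adjusted p = 0.107 and 0.109).

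For the other 5 genes the genotype difference did not pass, and its interval bounds what these arrays could show. Myc differed by −0.03 ± 0.055 (95% interval −0.16 to 0.09, adjusted p = 0.723). Max differed by 0.03 (−0.12 to 0.19, adjusted p = 0.804) and Mxd4 by −0.06 (−0.20 to 0.08, adjusted p = 0.576). Mlx differed by 0.04 (−0.18 to 0.26, adjusted p = 0.822) and Mxd3 by 0.02 (−0.23 to 0.27, adjusted p = 0.926), the widest intervals of the 7. In the fit without the filter, Mxd1 differed by 0.07 and Mycn by 0.10, with adjusted p = 0.736 and 0.625.

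**Figure D4:**
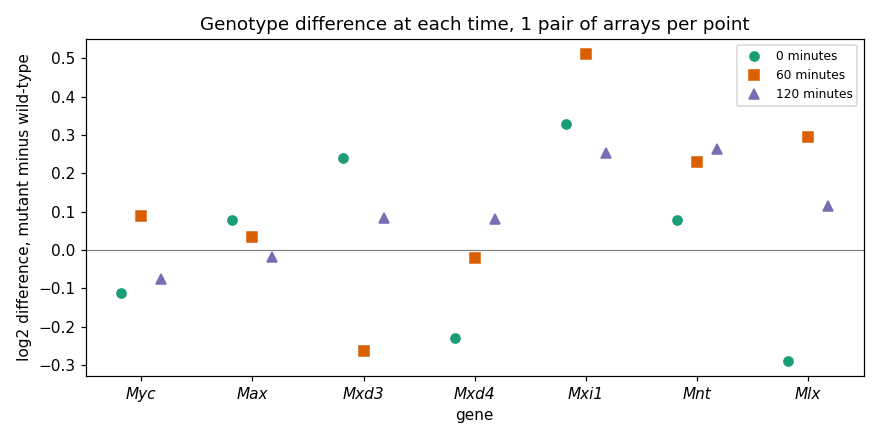
Log2 difference of mutant minus wild-type for the 7 tested genes at 0, 60 and 120 minutes, 1 pair of arrays per point. Mxi1 and Mnt lie above 0 at all 3 times, and Myc, Max, Mxd4, Mlx and Mxd3 lie on both sides of 0.

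Whether the time courses differed between genotypes could not be tested, since each genotype and time had 1 array, and the values follow without a test. For Myc the 60 minute intensity stood 3.88-fold over that at 0 minutes with wild-type LPAR1 and 4.47-fold with the mutant. As differences of log2(intensity + 16) these rises were 1.92 and 2.12, and the falls from 60 to 120 minutes were −1.27 and −1.43. Mutant and wild-type changes from 0 to 60 minutes differed most in Mlx (0.58) and Mxd3 (−0.50), and by 0.21, 0.18 and 0.15 in Mxd4, Mxi1 and Mnt. From 0 to 120 minutes these differences were 0.40 in Mlx, 0.31 in Mxd4, 0.19 in Mnt, −0.16 in Mxd3 and −0.08 in Mxi1, and 0.03 in Myc. The second Mlx set, at 0.40 in wild-type and 0.38 in mutant cells from 0 to 60 minutes, did not show the gap of the first. Over the same time the second Mxd3 set stood at 0.11 in wild-type and −0.19 in mutant cells. The third, dim Mxd3 set stood at −0.38 and −0.11.

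The genes whose 6 values followed each member most closely were found by Pearson's r over the 6 arrays, as a description in which all points share their arrays. For Myc these were Sertad1 (r = 0.999), Egr2 (0.995) and Ptger4 (0.995), of which Egr2 is a serum-induced zinc finger factor. For Max they were Kbtbd8 (0.997), Tinagl1 (0.995) and Limd1 (0.994), and for Mlx Mrps7 (0.985), Ptbp1 (0.983) and Plekhj1 (0.981). For Mnt they were Cilk1 (0.997), Cdc25c (0.997) and Lsm10 (0.996), for Mxd4 Zfp740 (0.998), Sec22a (0.997) and Rfc1 (0.997), for Mxi1 Oxsm (0.997), Cd59a (0.997) and Arid4b (0.997), and for Mxd3 Plxna3 (0.986), Nup214 (0.986) and Coro6 (0.983). Among the members themselves, Mnt lay closest to Mxi1 (r = 0.953) and Mxd4 (0.904), Max ran opposite to Mxd4 (−0.913), and the highest r of Myc with another member was 0.331, with Mlx.

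Genes around the network were read from 6 lists. Of 8 further network genes 4 were tested. Mlxip, which encodes MondoA, the partner of MLX, rose by 0.30 ± 0.091 from 0 to 60 minutes (log2 ± SE, adjusted p = 0.0459, or 0.364 and 0.379 without the mutant 0 or 60 minute array) and by 0.45 ± 0.091 from 0 to 120 minutes (adjusted p = 0.0027). Mga differed by at most 0.03 in size between times. Between genotypes Mycbp2, a ubiquitin ligase that binds MYC, was lower in the mutant (−0.34, adjusted p = 0.00337), and Mycbp, a MYC-binding protein, was higher (0.26, adjusted p = 0.0132, or 0.0502 and 0.0519 without either 0 minute array).

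Of 22 cofactors of MYC and of the MXD proteins 19 were tested. From 0 to 120 minutes 3 rose and 6 fell (15.8% and 31.6%), near the 16.2% and 30.8% of all genes. After centring the arrays 8 rose and 3 fell, where 25.5% of all genes rose and 16.2% fell. Leaving out 1 array gave 2 to 4 that rose and 3 to 6 that fell, the lowest count of falls without the wild-type 0 minute or the mutant 120 minute array. Sap30 fell by 0.76 ± 0.071 (adjusted p = 1.92e-05) and Sin3a by 0.61 ± 0.083 (adjusted p = 0.000235), both subunits of the SIN3 corepressor. Wdr5, a MYC-binding chromatin adaptor, rose by 0.43 (adjusted p = 0.000489), and Ruvbl1, an ATPase of the TIP60 complex, rose by 0.43 from 60 to 120 minutes (adjusted p = 0.00107). From 0 to 60 minutes 1 rose and 2 fell (0 to 1 and 1 to 3 with 1 array left out), and from 60 to 120 minutes 2 rose and 3 fell, with 1 falling without the wild-type 120 minute array. These shares were 5.26% and 10.5% for the first hour and 10.5% and 15.8% for the later one. Over all genes 7.37% rose and 10.7% fell from 0 to 60 minutes, and 10.2% rose and 15.0% fell from 60 to 120 minutes. In the mutant 4 cofactors were higher (Sin3a by 0.30, Actl6a by 0.24, Smarcb1 by 0.21 and Hdac1 by 0.18, with adjusted p from 0.0137 to 0.0469) and 0 lower, with 6 higher and 1 lower at an unadjusted p under 0.05 (limma), where 10.5% of all genes were higher. That count of 4 was 2 without either 0 minute array, 1 without either 60 minute array, 0 with probe sets averaged and 0 with no replicate block.

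Of 17 genes that act on MYC protein stability 15 were tested, and from 0 to 120 minutes 6 rose and 4 fell, where 16.2% of all genes rose and 30.8% fell. The 6 became 2 without the wild-type 0 or 120 minute array, 3 without the mutant 0 minute array and 1 to 9 over all alternatives, and the 4 became 2 without the mutant 0 minute array and after centring. Pim1, a kinase that stabilises MYC, rose by 1.39 ± 0.12 from 0 to 60 minutes (adjusted p = 3.60e-05) and fell by 0.98 from 60 to 120 minutes (adjusted p = 0.000321), the same order as Myc. Fbxo32, an F-box protein, fell by 2.48 ± 0.11 over 120 minutes (adjusted p = 1.14e-07) and Aurka, a kinase known for stabilising MYCN, by 0.82 (adjusted p = 7.53e-05). Usp28, which removes ubiquitin from MYC, rose by 0.64 from 60 to 120 minutes (adjusted p = 0.0017), and Fbxw7, the ubiquitin ligase that USP28 opposes, rose by 0.35 from 0 to 120 minutes (adjusted p = 0.00268).

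Of 30 genes known to be activated by MYC 27 were tested. From 60 to 120 minutes, while Myc mRNA fell, 13 rose (48.1%) and 0 fell (0 at an unadjusted p under 0.05, limma). Over all genes 10.2% rose and 15.0% fell. The list median was 0.26 against −0.02 over all genes, with 9 to 16 of the list rising over the alternatives. The 4 largest were Nop56, of box C/D ribonucleoproteins, by 0.93 ± 0.071 (adjusted p = 1.28e-05), Srm, spermidine synthase, by 0.86 ± 0.064 (adjusted p = 1.11e-05), Ppat, of purine synthesis, by 0.85 ± 0.10 (adjusted p = 0.000218), and Dkc1, the pseudouridine synthase dyskerin, by 0.85 ± 0.076 (adjusted p = 3.62e-05). From 0 to 60 minutes 5 rose and 0 fell (7 and 0 at an unadjusted p under 0.05, limma), led by Odc1, the first enzyme of polyamine synthesis, at 0.71 ± 0.11 (adjusted p = 0.0012), with 2 to 8 rising over the alternatives (2 without the wild-type 0 minute array, 3 without the mutant 60 minute array). Over all genes 7.37% rose and 10.7% fell in that time. From 0 to 120 minutes 14 of the list rose (51.9%) and 1, Apex1, fell (−0.29, adjusted p = 0.00649), where 16.2% of all genes rose and 30.8% fell. The largest rises then were in Ppat (1.28), Odc1 and the nucleolar genes Rrs1 and Gnl3. In the mutant 2 of the list (7.41%) were higher (Cdk4 by 0.28 and Eif4e by 0.27) and 3 (11.1%) lower (Eif4ebp1, Ccnd2 and Nme1). Between genotypes 19.5% of all genes were called (10.5% higher), so the list did not stand out in the higher direction. In the list 4 were higher without either 120 minute array, and 0 were called in either direction with no replicate block.

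Of 12 genes known to be repressed by MYC 10 were tested. From 0 to 120 minutes 6 fell (60.0%) and 2 rose (20.0%), against 30.8% and 16.2% of all genes. The list median was −0.81 against −0.09 over all genes. From 60 to 120 minutes 6 fell and 0 rose (0 at an unadjusted p under 0.05, limma), against 15.0% and 10.2% of all genes. Gadd45a, a stress-induced growth arrest gene, fell by 1.70 ± 0.096 (adjusted p = 2.10e-06) in the later hour, Ddit3, a stress transcription factor, by 1.09, Cdkn1b, the cyclin-dependent kinase inhibitor p27, by 0.99 and Gas1 by 0.90. The 2 that rose from 0 to 120 minutes did so against the list's name: Thbs1, the secreted protein thrombospondin, was already 4.67 ± 0.061 higher at 60 minutes (adjusted p = 6.07e-11), and Cdkn1a, the inhibitor p21, rose by 0.37. From 0 to 60 minutes 5 fell and 2 rose, with 3 falling without the mutant 60 minute array. Over all genes 10.7% fell and 7.37% rose from 0 to 60 minutes. In the mutant 3 of the list were higher and 3 lower, where 19.5% of all genes were called. Gas1 was higher by 0.47 and Thbs1 lower by 0.59. Each count of 3 was 1 without either 120 minute array and 0 with no replicate block.

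All 6 genes listed as MLX and MondoA targets were tested. From 0 to 120 minutes 1 rose and 3 fell, where 16.2% of all genes rose and 30.8% fell. The 3 became 1 after centring and without the mutant 0 or 120 minute array. Txnip, the glucose-responsive thioredoxin inhibitor, fell by 3.44 ± 0.082 from 0 to 60 minutes (adjusted p = 1.82e-09) and stood at −3.36 against 0 minutes at 120 minutes (adjusted p = 4.08e-09). Hk2, hexokinase, rose by 0.39 from 0 to 120 minutes (adjusted p = 0.00135), and the Txnip relative Arrdc4 fell by 0.27 (adjusted p = 0.0352), or −0.13 after centring (adjusted p = 0.342). In the mutant Arrdc4 was higher by 0.31 and Txnip by 0.23 (adjusted p = 0.0187 and 0.0409). The first was lost without either 60 minute array (adjusted p = 0.108 and 0.115), the second without either 0 or 120 minute array (adjusted p from 0.0739 to 0.280), and both with no replicate block.

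**Figure D5:**
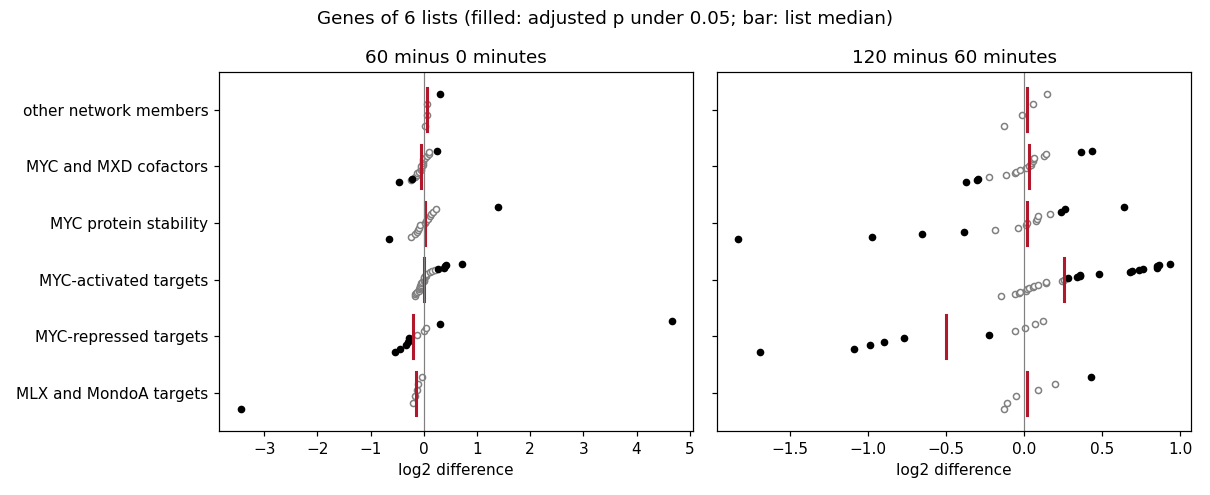
Log2 differences of the tested genes of 6 lists, 1 point per gene, filled where the adjusted p was under 0.05, with a bar at each list's median. In the 120 minus 60 panel 13 of 27 MYC-activated genes are filled to the right of 0 and 6 of 10 MYC-repressed genes to the left. Of all genes tested 10.2% were called higher and 15.0% lower.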

How the data were processed

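Total RNA from 6 NIH3T3 samples (genotype by time, 1 array each) was hybridised to Affymetrix arrays. The deposited intensity values came from the PLIER method in Affymetrix Power Tools 1.14.3.1, per the submitters' processing notes; background correction and scaling are not given in the sources used here. Of 45101 probe sets 34945 named 1 gene, 932 several, and 9160 none, with 64 controls. Levels were log2(intensity + 16), which understates changes of dim genes, and each gene took its brightest probe set. Fold values of fitted differences are on this scale. limma 3.58.1 in R 4.3.3 fitted genotype and time to 10916 genes (2 residual and 7.74 prior degrees of freedom, trended eBayes, two-sided, threshold 0.05). All 9 members are named, with up to 4 genes per list and comparison, called ones first, and the 3 genes most like each member; further called list genes named in the text, and Mga, were chosen after their values were seen. Members and lists were chosen with earlier results of these data known.

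Time paired the arrays, as the labels give it: deviations of the same-time arrays correlated at 0.911, 0.757 and 0.871 across genotypes. On simulated data for 60 minus 0 minutes (10916 genes), 91% of 100 changes of log2 0.5 and 100% of 100 of log2 1 were recovered, with 9 false calls. Alternatives were log offsets of 1 and 64, quantile or median scaling, no filter or a 60th percentile filter, probe sets averaged or fitted singly, no trend, arrays left out in turn, and genotype or time left out. For genotype, leaving out either array of a time gave the same difference, because the array that remains has no partner. Those fits are therefore not separate checks. With 6 arrays, their number limits the precision.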

Additional observations from a re-analysis of the deposited data

Results flagged for a closer look

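In 4 results the genotype difference changed sign between times, or the time change had opposite signs in wild-type and mutant cells. A result was counted only where both sides were at least 0.1 in size on the log2 scale. Sign changes with a smaller side, such as those of the genotype difference in Myc, Max and Mxd4, were not counted. Each value came from 1 pair of arrays, so the difference was not tested. Mlx was lower in the mutant at 0 minutes (−0.29 on the log2 scale) and higher at 60 minutes (0.30), a shift of 0.58, and still higher at 120 minutes (0.11), a shift of 0.40 from 0 minutes. Its second probe set gave genotype differences of 0.05, 0.03 and −0.05. Mxd3 was higher in the mutant at 0 minutes (0.24) and lower at 60 minutes (−0.26), a shift of −0.50. From 60 to 120 minutes Mxd3 went down by 0.15 in wild-type and up by 0.20 in mutant cells, a gap of 0.35. The second Mxd3 set, also above the filter level, changed by −0.08 and −0.16 over that time. Its genotype differences at 0, 60 and 120 minutes were 0.25, −0.05 and −0.13. The third set, below the filter level, gave 0.25, 0.51 and 0.13.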

How the results depend on the processing

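The count of members called for genotype was 2, and became 1 with no filter, without the eBayes trend and in the fit over probe sets, 0 with all probe sets of a gene averaged (2 at an unadjusted p under 0.05, limma), and 0 with no replicate block, that is with time left out (adjusted p = 0.746 for Mxi1, with 0 members at an unadjusted p under 0.05 in limma; over all genes 0.916% were called). From 0 to 60 minutes the 2 calls became 1 with median centring, without trend and with genotype left out; from 60 to 120 minutes the 5 became 1 with genotype left out. Leaving out each array in turn gave 1 to 2, 1 to 3 and 4 to 4 calls for these, and 4 to 6 from 0 to 120 minutes. Directions that turned belong to differences that did not pass: leaving out an array, genotype differences ranged from −0.087 to 0.20 in Mlx, −0.090 to 0.16 in Mxd3, −0.12 to 0.031 in Mxd4 and −0.094 to 0.0060 in Myc, 0 to 60 minutes from −0.032 to 0.038 in Max and −0.014 to 0.48 in Mlx, and 60 to 120 minutes from −0.19 to 0.24 in Mxd3 (−0.014 with all its sets averaged). Dim probe sets (Mycn, Mxd1, Mxd3) limit what can be read of those genes.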
